A study of Mus musculus with 8 samples.

Results

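Primitive endoderm is the extraembryonic epithelium that the inner cell mass of the blastocyst forms beside the pluripotent epiblast, and embryonic stem (ES) cell cultures can hold cells that express its genes. Here 10 genes of this lineage were followed by their symbols among the 23337 names of the expression table. These genes were listed with earlier results of these data known. They were the transcription factors *Gata4*, *Gata6* and *Sox7*, the signalling genes *Pdgfra* and *Dab2*, and the basement membrane genes *Lama1*, *Lamb1*, *Col4a1*, *Col4a2* and *Sparc*. *Sox17* was left out because its row is displaced between libraries.

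The libraries came from 4 ES cell clones (6, 20, 30 and 36), each sequenced once at passage 6 and once at passage 16, 8 libraries in all. All were labelled wild type, strain 129S1, derived from blastocysts that express GFP from the *Rosa26* locus, and grown in DMEM with LIF, so that both passages share the GFP insertion and the medium. The study asked what expansion in culture does to ES cells whose telomeres lengthen with passage. Its methods name GFP-expressing R1 cells of 129S1 background, used for chimaeras, and a pair of other cultured clones of C57BL6 background, without saying which cells were sequenced, and the labels mention neither feeder cells nor a sort. Each clone is 1 line with 1 library per passage, so n = 4 per passage. In passage comparisons without a clone term, p-values measure the spread between these clones. In fits with a clone term, p-values rest on the spread within clones once the mean passage change is taken out.

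The libraries held between 21394069 and 34295561 reads assigned to genes. Values are normalized counts, that is, reads divided by a size factor of the library. The pluripotency genes *Pou5f1*, *Nanog*, *Esrrb*, *Klf4*, *Klf2* and *Tfcp2l1* summed to between 56861 and 59140.5 normalized counts per library at passage 6 and to between 58668 and 63884 at passage 16.

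In the embryo, FGF signalling through GRB2 favours GATA6 over NANOG in inner cell mass cells, and GATA6 in turn leads to GATA4, SOX17 and SOX7. PDGFRA is a surface receptor that marks the lineage, and the adaptor DAB2 is needed to set primitive endoderm apart as an epithelium. The descendants of this epithelium secrete large amounts of laminin and type IV collagen, which with SPARC make up much of Reichert's membrane.

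All 10 genes were read in every library, all 10 passed the filter of a mean of at least 10 normalized counts, and all 10 moved together. Each was highest in passage 6 clone 36 and lowest in passage 16 clone 30. By comparison, 2.74% of 12283 names tested outside the groups of displaced rows had that combination of highest and lowest library. Those groups were set by the spelling of names. No member was called between the passages, and none was called between the clones.

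*Gata4*, a zinc finger factor of the endoderm and heart (chromosome 14, 63198922 to 63271692, GRCm38), had 950, 514, 389 and 1586 normalized counts at passage 6 in clones 6, 20, 30 and 36, and 463, 1254, 252 and 1065 at passage 16. Clone 36 was high and clone 30 low at both passages, clone 20 changed from the lower part of the range to its upper part, and the passages overlapped. *Gata6*, the earliest of these factors in the lineage (chromosome 18, 11052064 to 11085635), had 591, 450, 353 and 1143 at passage 6 and 427, 979, 217 and 776 at passage 16. Clones ranked as they did for *Gata4* at both passages. *Sox7*, a SOX-F factor of parietal and visceral endoderm (chromosome 14, 63943673 to 63950732), had 317, 266, 111 and 514 at passage 6 and 121, 508, 60.0 and 368 at passage 16. It was the most variable member, with an 8.57-fold range across the 8 libraries, against 6.28-fold for *Gata4* and 5.28-fold for *Gata6*. Its lowest value rests on 62 reads, whose 95% exact Poisson interval of 46.0 to 76.9 normalized counts covers counting error only and lies below the other 7 libraries.

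*Pdgfra*, the receptor for platelet-derived growth factors (chromosome 5, 75152292 to 75198215), had 679, 414, 398 and 1334 normalized counts at passage 6 in clones 6, 20, 30 and 36, and 455, 1003, 347 and 787 at passage 16. Clone 36 stood well above the other clones at passage 6, and clone 20 was the highest at passage 16. The highest library was 3.84-fold above the lowest.

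*Dab2*, an endocytic adaptor (chromosome 15, 6299788 to 6440712), had 1376, 1489, 1060.0 and 2972 normalized counts at passage 6 and 1116, 2514, 851 and 2332 at passage 16. Its range was 3.49-fold, with clone 36 high and clone 30 low at both passages. The RefSeq promoter windows used here (GRCm38.p6, 250 bases before to 50 after a start site) held 7 windows of 6 members. *Gata4*, *Gata6*, *Sox7* and *Lama1* had no window and were not searched. Among the 6 members with a window, *Dab2* was the only one with a GATA motif. The motif was searched on both strands in its versions AGATAA with its variant AGATAG, then TGATAA with its variant TGATAG. The 250 bases before the first *Dab2* start site, chr15:6299539-6299788 on the plus strand, are printed because they hold one of the matches, in capitals, at position -179 counted from the start:
Dab2: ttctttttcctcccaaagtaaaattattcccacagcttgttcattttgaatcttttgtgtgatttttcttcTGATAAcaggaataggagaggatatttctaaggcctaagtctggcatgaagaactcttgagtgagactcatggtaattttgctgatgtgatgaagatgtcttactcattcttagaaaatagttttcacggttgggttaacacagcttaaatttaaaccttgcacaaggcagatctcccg
Another match, TTATCT, lies past these bases, at position 14 from the start. Of all 32851 promoter windows 29.8% held a GATA motif, against 1 of 7 member windows. The SOX motif, searched on both strands as ACAAAG with its variant ACAATG, occurred in 28.6% of all windows and in 0 of the 7. These are matches of letters and were not tested as binding sites.

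Among the basement membrane genes, *Lama1*, a laminin alpha chain of early basement membranes (chromosome 17, 67697259 to 67822647), had 14664, 11228, 6283 and 24284 normalized counts at passage 6 in clones 6, 20, 30 and 36, and 8146, 17214, 5338 and 13241 at passage 16. *Lamb1*, the beta chain that joins it (chromosome 12, 31265234 to 31329644), had 13207, 10476, 6844 and 18754 at passage 6 and 6909.9, 14443, 5887 and 11939 at passage 16. Both laminin chains had clone 20 highest at passage 16, then clones 36, 6 and 30.

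*Col4a1* (chromosome 8, 11198423 to 11312826, minus strand) and *Col4a2* (chromosome 8, 11312805 to 11449287, plus strand) encode the chains of the common type IV collagen and lie head to head. *Col4a1* had 19899, 12923, 6821 and 30083 normalized counts at passage 6 and 8481, 21483, 5438 and 17554 at passage 16. *Col4a2* had 10029.8, 6772, 3743 and 15544 at passage 6 and 4149, 11402, 3083 and 9151 at passage 16. Across the libraries *Col4a1* and *Col4a2* had an r of 0.998, the highest of the 45 member pairs. Their start sites lie so near that the first exons share 22 bases on opposite strands, chr8:11312805-11312826. That stretch is printed on the plus strand to show how the pair of genes meets:
Col4a1 and Col4a2: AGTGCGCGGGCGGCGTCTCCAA
All of it is in capitals because every base belongs to both transcripts, and 72.7% of it is G or C.

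*Sparc*, a collagen-binding matrix protein (chromosome 11, 55394500 to 55423183), had 17054, 17004, 10904 and 24548 normalized counts at passage 6 and 10273, 19695, 9830.1 and 16405 at passage 16. It was the least variable member, with a 2.50-fold range. *Lama1*, *Lamb1*, *Col4a1* and *Col4a2* had ranges of 4.55-, 3.19-, 5.53- and 5.04-fold.

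**Figure D1:**
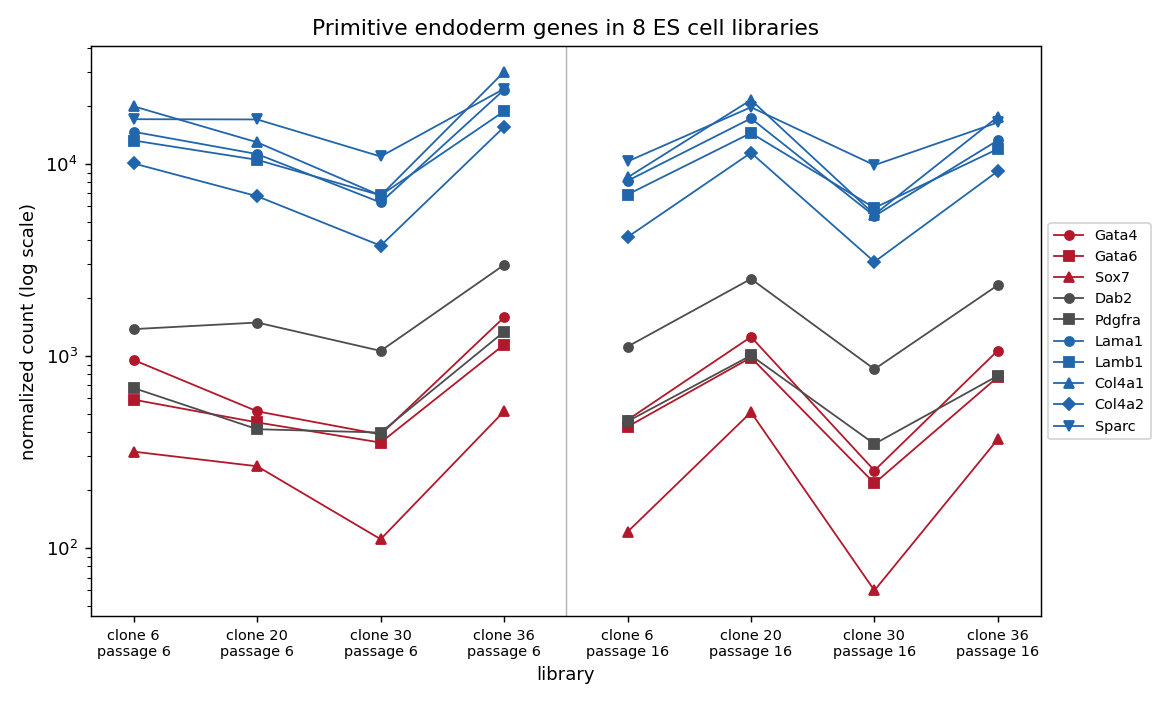
Normalized count of each of the 10 genes in the 8 libraries, on a log axis, by passage and clone. Every gene was highest in passage 6 clone 36 and lowest in passage 16 clone 30, and the passages overlapped for each.

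Exons of *Gata6*, *Dab2*, *Pdgfra*, *Col4a1* and *Col4a2* overlap those of another gene by 22 to 456 bases, mostly on the opposite strand. The libraries were strand-specific, but the strand setting of the counting was not given in the sources used here. Per kilobase of exon, the mean level over the 8 libraries was 4148 normalized counts per kb for *Sparc*, 2055 for *Col4a1*, 1296 for *Lama1*, 1206 for *Col4a2*, 1115.0 for *Lamb1*, 233 for *Dab2*, 207 for *Gata4*, 94.8 for *Gata6*, 85.8 for *Sox7* and 67.6 for *Pdgfra*. *Sparc* was above *Col4a1*, *Col4a1* above *Lama1*, *Lamb1* above *Dab2* and *Gata4* above *Gata6* in 8 of 8 libraries. *Lama1* exceeded *Col4a2* in 6 of 8, *Col4a2* exceeded *Lamb1* in 4 of 8, *Gata6* exceeded *Sox7* in 5 of 8 and *Sox7* exceeded *Pdgfra* in 5 of 8, so those neighbours were not separated in every library.

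The spread between libraries was wide for the whole group. The SD of log2(normalized count + 1) over the 8 libraries was 1.13 for *Sox7*, 0.93 for *Gata4*, 0.88 for *Col4a1*, 0.85 for *Col4a2*, 0.80 for *Gata6*, 0.75 for *Lama1*, 0.70 for *Pdgfra*, 0.66 for *Dab2*, 0.60 for *Lamb1* and 0.48 for *Sparc*. The median of the 10 was 0.77, against 0.20 for the 14791 names tested and 0.18 for the 12283 outside the groups of displaced rows. Among all 14791, from 82.0% (for *Sparc*) to 94.4% (for *Sox7*) had a smaller SD. Counting error was small beside this, with an SD of 0.18 on the log2 scale for the lowest *Sox7* library and of 0.014 for the lowest *Sparc* library. In these bulk libraries, fewer cells of a type and less RNA per cell cannot be told apart.

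The factors and the basement membrane genes varied together. The mean log2 level of the 3 factors was 9.14, 8.63, 7.96 and 9.93 at passage 6 in clones 6, 20, 30 and 36 and 8.18, 9.74, 7.23 and 9.40 at passage 16, and that of the 5 basement membrane genes was 13.83, 13.45, 12.68 and 14.43 at passage 6 and 12.83, 14.00, 12.43 and 13.70 at passage 16. Across the 8 libraries Pearson's r between these means was 0.974 and Spearman's rho 0.976. They are given without p because each clone contributes a pair of libraries and the members were listed with earlier results of these data known. Without passage 6 clone 36 and passage 16 clone 30, the libraries farthest from the median, r was 0.961 and rho 0.943. Leaving out each clone in turn gave r from 0.954 to 0.978. With the mean of each passage removed, r was 0.979, with rho of 0.952. With the mean of each clone removed, r was 0.902 and rho 0.762, the lowest of these values.

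**Figure D2:**
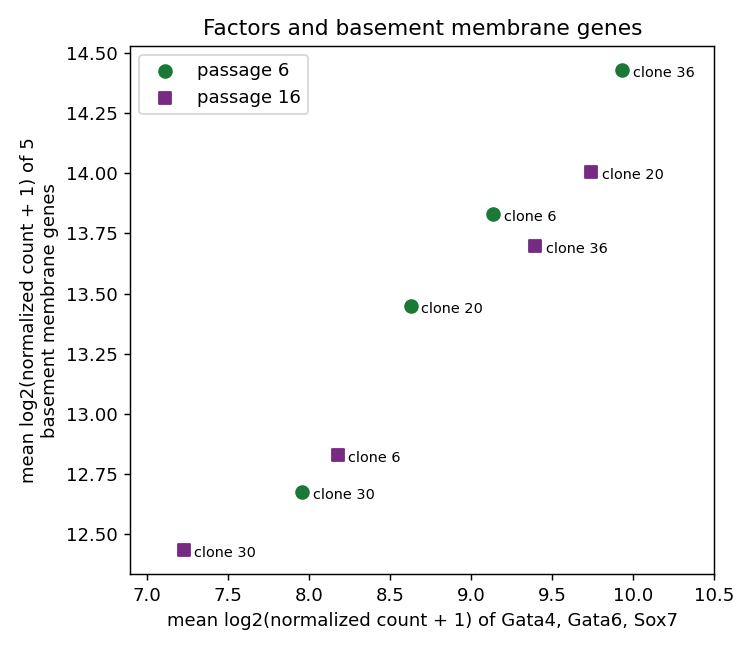
Mean log2(normalized count + 1) of *Gata4*, *Gata6* and *Sox7* (horizontal axis) against that of *Lama1*, *Lamb1*, *Col4a1*, *Col4a2* and *Sparc* (vertical axis), 1 point per library. The points lie along a single rising line, with r = 0.974 over 8 libraries.

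By single pairs, the 45 correlations between members ran from 0.870 to 0.998 with a median of 0.959. The 3 pairs of factors had r from 0.956 to 0.985, the 10 pairs of basement membrane genes from 0.962 to 0.998, and the 15 pairs of a factor with a basement membrane gene from 0.896 to 0.976. Among all pairs of names tested outside the groups of displaced rows the median was -0.001, and 1.02% reached the lowest value among the members. This comparison is a description, since the members were not listed blind to these data.

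The passages did not separate for any member. Between passage 16 and passage 6, limma called 1 of 14791 names at an adjusted p under 0.05 (0.00676%) and 518 names at an unadjusted p under 0.05. Of the 10 members, 0 were called, and 0 had an unadjusted p under 0.05. *Sox7* had 302 ± 166 normalized counts at passage 6 and 264 ± 210.0 at passage 16 (SD, n = 4 each), a log2 change of -0.45 (SE 0.74; limma adjusted p = 0.955). *Col4a1* had 17432 ± 9984 at passage 6 and 13239 ± 7530 at passage 16 (SD, n = 4 each), a log2 change of -0.40 (SE 0.57; limma adjusted p = 0.947). The other log2 changes were -0.24 for *Gata4*, -0.15 for *Gata6*, -0.053 for *Dab2*, -0.065 for *Pdgfra*, -0.34 for *Lama1*, -0.33 for *Lamb1*, -0.39 for *Col4a2* and -0.31 for *Sparc*. All 10 estimates were below 0, with SEs from 0.30 (*Sparc*) to 0.74, and their median was -0.32 against -0.0037 over all names tested. The exact two-sided permutation p over the 8 libraries, shuffled without regard to clone, ran from 0.429 (*Sparc*) to 0.971 (*Dab2*).

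Paired by clone, with 1 library per clone and passage, the direction differed between the pairs. The pair of clone 6 rests on its label. As deviations from the passage means over 12283 names, its passage 6 library had r of 0.0956 with its passage 16 library. The highest r with a passage 16 library of another clone was 0.281. In clone 20 all 10 members were higher at passage 16, with log2 changes of 1.29 for *Gata4*, 1.12 for *Gata6*, 0.93 for *Sox7*, 0.75 for *Dab2*, 1.27 for *Pdgfra*, 0.62 for *Lama1*, 0.46 for *Lamb1*, 0.73 for *Col4a1*, 0.75 for *Col4a2* and 0.21 for *Sparc*. In clones 6, 30 and 36 all 10 were lower. The changes in clone 6 ran from -1.38 (*Sox7*) to -0.30 (*Dab2*), those in clone 30 from -0.88 (*Sox7*) to -0.15 (*Sparc*) and those in clone 36 from -0.87 (*Lama1*) to -0.35 (*Dab2*). Averaged over the members, the change was -0.88 in clone 6, 0.81 in clone 20, -0.39 in clone 30 and -0.64 in clone 36. The same signs in the 4 clones were found in 7.21% of 12283 names tested outside the groups of displaced rows.

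By kind of gene, the mean change of the factors was 1.11 in clone 20 and that of the basement membrane genes 0.56, and in clone 30 the means were -0.73 and -0.24. In clone 6 they were -0.96 and -1.004, and in clone 36 the basement membrane genes had the larger change, with -0.54 for the factors and -0.73 for the basement membrane genes. These are single pairs of libraries and the differences were not tested.

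**Figure D3:**
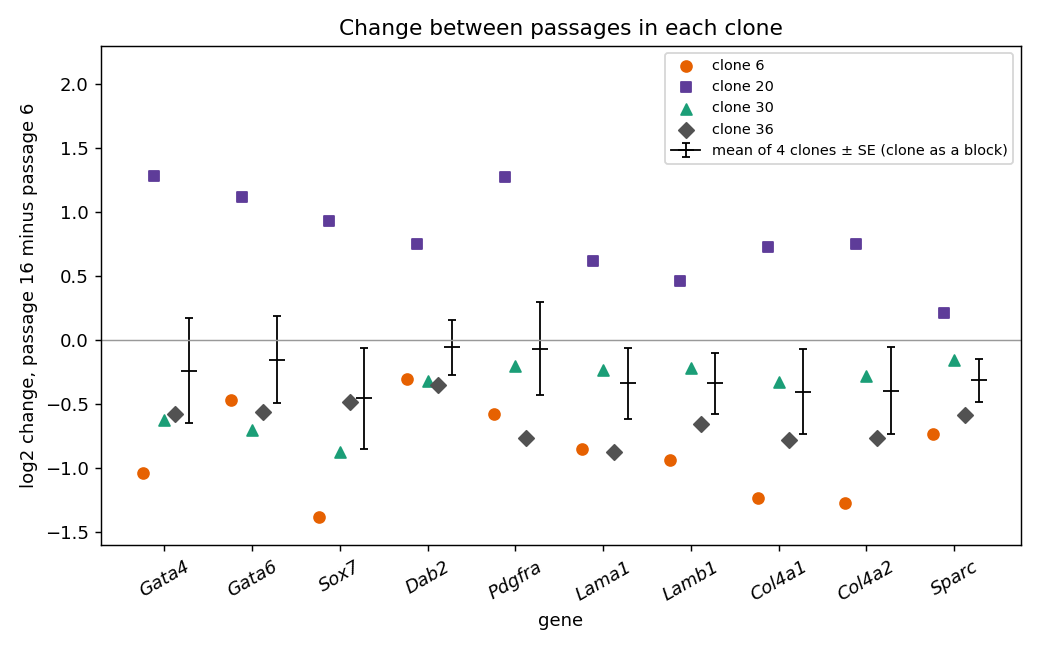
Log2 change from passage 6 to passage 16 of each gene in each of the 4 clones, 1 point per clone, with a line at 0. The bars give the mean of the 4 clones ± SE from the fit with the clone as a block. The points of clone 20 lie above 0 for all 10 genes, from 0.21 to 1.29, and those of clones 6, 30 and 36 below it.

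With the clone as a block the SEs were smaller, from 0.17 (*Sparc*) to 0.41 (*Gata4*), and 0 members were called, with limma adjusted p from 0.726 (*Sparc*) to 0.972 (*Pdgfra*) and a lowest unadjusted p of 0.127. Without clone 20 the log2 changes were larger, from -0.91 (*Sox7*) to -0.32 (*Dab2*), and again none was called, with limma adjusted p of 0.947 for each member. The estimates for *Gata4*, *Gata6*, *Sox7*, *Dab2* and *Pdgfra* changed sign when some other libraries or clones were left out.

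The clones were compared with a limma F test that takes out the mean passage change and so sets the spread between the 4 clones against the spread between the passages of a clone. It called 20 of 14791 names (0.135%), and 1587 (10.7%) had an unadjusted p under 0.05. Of the members, 0 were called and 5 of 10 had an unadjusted p under 0.05, namely *Dab2* (0.0180, adjusted p = 0.410 with limma), *Sox7* (0.0273, adjusted 0.441), *Sparc* (0.0350, adjusted 0.449), *Lama1* (0.0371, adjusted 0.450) and *Col4a1* (0.0408, adjusted 0.453). The count of members with an unadjusted p under 0.05 was 9 among names outside the displaced groups (14.1% of names), 7 with no filter (9.58%) or with no passage term (10.2%) and 3 with a robust prior (10.7%). It also depended on single clones. Without clone 6 it was 8 (15.9% of names). Without clone 20 it was 10 (12.5% of names), with limma p from 5.42e-05 (*Dab2*, adjusted 0.0668) to 0.0108 (*Sparc*, adjusted 0.321), and none was called. Without clone 30 it was 0 (3.3% of names), and without clone 36 it was 0 (8.21% of names).

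Other genes of visceral and parietal endoderm were examined from a list of 21, of which 15 could be tested outside the groups of displaced rows. None of the 15 was called between passages or between clones. *Cubn*, the endocytic receptor cubilin, had 1880.1, 2098, 1182 and 4720.1 normalized counts at passage 6 in clones 6, 20, 30 and 36, and 1184, 3931, 692 and 3177 at passage 16. *Foxa2*, a forkhead factor of endoderm, had 72.2, 59.5, 36.9 and 155 at passage 6 and 37.7, 99.5, 29.0 and 74.8 at passage 16. Both followed the members, with correlations of 0.974 and 0.987 with the mean log2 level of the 10. *Cubn* and *Foxa2* were picked for mention after their values were seen. In the whole list 9 of 15 had r above 0.8 (60.0%), against 7.27% of 12283 names, and the median r was 0.900 against -0.035. The lowest r of the 15 were 0.476 for *Hnf4a*, 0.363 for *Lrp2* and -0.090 for *Rbp4*. The correlation was therefore not shared by every endoderm gene. The log2 changes between passages ran from -0.96 for *Thbd* (limma adjusted p = 0.947) to 0.15 for *Hhex* (limma adjusted p = 0.947). The serum protein genes of yolk sac endoderm, *Ttr*, *Afp* and *Apoa1*, and the secreted signalling antagonist *Cer1* of anterior visceral endoderm were too low to test, with medians of 6.50, 6.46, 5.30 and 1.70 normalized counts over the 8 libraries.

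Of 14 other genes of basement membranes and collagen processing, none was called in either test, and 5 (35.7%) had r above 0.8 with the member mean. These were *Lamc1*, the laminin gamma chain that joins *Lama1* and *Lamb1* products (0.841), the nidogen *Nid2* (0.825), the collagen prolyl hydroxylase subunits *P4ha1* (0.906) and *P4ha2* (0.966), and the collagen chaperone *Serpinh1* (0.862). *Lama5*, a laminin alpha chain of other epithelia, the proteoglycan *Agrn* and the laminin receptor *Dag1* had r of -0.756, -0.732 and -0.786. The correlation with the members was therefore not shared by every basement membrane gene. The passage changes ran from -0.18 (*Hspg2*) to 0.050 (*Plod1*).

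Of 12 genes of FGF and PDGF signalling, none was called in either test and none had r above 0.8, and the median r was -0.170. *Fgfr2* (r = -0.923) had 766, 1089, 1305 and 823 normalized counts at passage 6 in clones 6, 20, 30 and 36, and 1303, 850.4, 1434 and 809.6 at passage 16. *Fgfr1* (r = -0.855) had 3345, 3593, 4691 and 3529 at passage 6 and 4555, 3830.1, 5121 and 3727 at passage 16. These FGF receptors were highest in passage 16 clone 30, where the endoderm genes were lowest. Values of r under -0.8 occurred in 5.76% of 12283 names. The ligands *Fgf4* and *Pdgfa* had r of -0.751 and 0.170. The passage changes ran from -0.40 (*Pdgfc*) to 0.19 (*Fgfr1*).

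**Figure D4:**
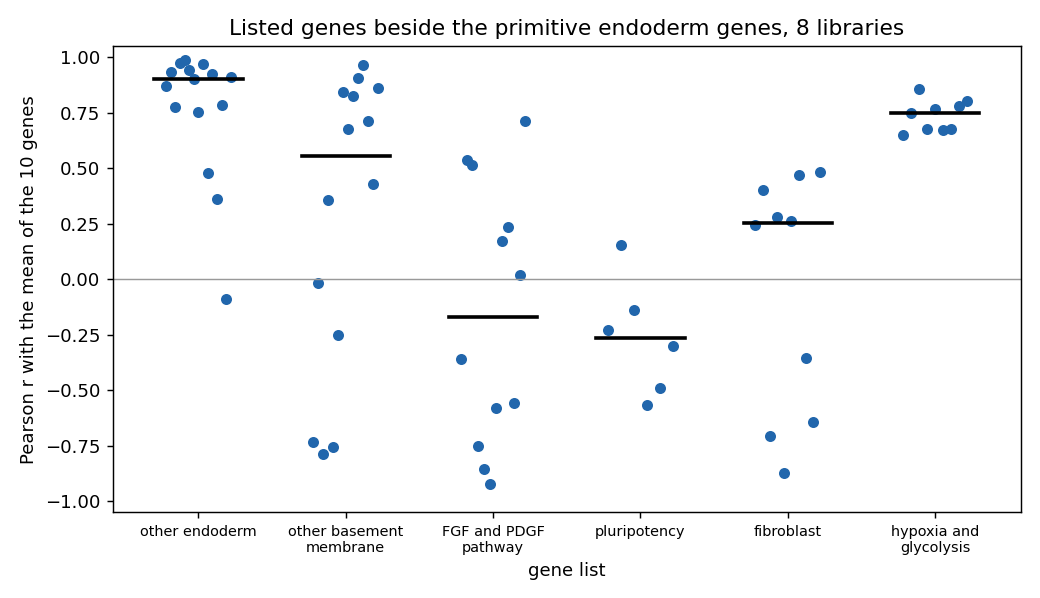
Pearson's r over the 8 libraries between each gene of a list and the mean log2 level of the 10 primitive endoderm genes, 1 point per gene, by list, with a bar at the median of each list. Other endoderm genes lie mostly near the top (median 0.900), whereas the genes of FGF and PDGF signalling spread on both sides of 0 (median -0.170).

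Several measures moved with the group or were examined beside it. The summed pluripotency genes had r of -0.708 with the member mean. Singly, these 6 genes had r from -0.567 (*Nanog*) to 0.152 (*Klf2*), with a median of -0.267 and 0 under -0.8. None of the 6 was called between passages, where the changes ran from -0.049 (*Pou5f1*) to 0.28 (*Klf4*), with *Nanog* at 0.27. Of the 6, 2 had an unadjusted limma p under 0.05, against 518 of 14791 names. These were *Nanog* (0.0048, adjusted 0.947) and *Klf4* (0.0084, adjusted 0.947). The sum of 11 fibroblast genes lay between 6706 and 11151 normalized counts at passage 6 and between 6242 and 9893 at passage 16, with r of 0.021, and of these only *Lum* was at 0 in a library, passage 6 clone 36. Of its 10 tested genes none was called, and the changes ran from -0.39 (*Acta2*) to 0.57 (*Dcn*). Singly, these 10 had r from -0.873 (*Dcn*) to 0.482 (*Twist1*), with a median of 0.253. *Dcn* was lowest in passage 6 clone 36 (9.48 normalized counts) and highest in passage 16 clone 30 (60.9). The sum of 9 genes of glycolysis and the hypoxia response, a list chosen after the data were seen, lay between 39503 and 109848 at passage 6 and between 43342 and 97068 at passage 16, with r of 0.773 and its highest value in passage 6 clone 6. Its genes had r from 0.649 to 0.856, none was called between passages, and the changes ran from 0.043 (*Pdk1*) to 0.64 (*Bnip3*). *P4ha1*, which is also induced by hypoxia, had 3461, 1038, 750.5 and 3358 at passage 6 in clones 6, 20, 30 and 36, and 1306, 3534, 839.6 and 2676 at passage 16. The log2 total of reads had r of -0.609 and rho of -0.690 with the member mean. The part of these measures in the spread of the endoderm genes was not tested.

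Over the 8 libraries, the names most like the mean of the 3 factors among 9434 other names with a mean of at least 100 normalized counts were *Srgn* (r = 0.993), *Bmper* (0.991), *Arl5b* (0.987), *Ppic* (0.985) and *Hkdc1* (0.984). Those most like the mean of the 5 basement membrane genes were *Hs3st1* (0.994), *Bmper* (0.987), *Arl5b* (0.987), *Ppic* (0.982) and *Srgn* (0.978), so 4 names were in both sets. *Srgn*, the proteoglycan serglycin, had 906, 543, 317 and 1925 normalized counts at passage 6 in clones 6, 20, 30 and 36, and 353, 1239.7, 182 and 1204 at passage 16. *Bmper*, a secreted BMP-binding protein, had 287, 187, 122 and 524 at passage 6 and 132, 345, 74.5 and 297 at passage 16. Both were highest in passage 6 clone 36 and lowest in passage 16 clone 30, like the members, which their choice by r makes likely. Shared names are likely too, because the means of the factors and of the basement membrane genes had r of 0.974. A high r does not give the size of the spread, as *Arl5b* lay between 795 and 962 normalized counts.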

How the data were processed

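PolyA RNA of 8 libraries (4 clones at 2 passages) was sequenced with a strand-specific kit. Per the labels, the submitters' processing notes name TopHat2 2.0.10, Bowtie 1.0.0, SAMtools 0.1.19, HTSeq 0.5.3p9 and DESeq2 with GRCm38 (mm10). The deposited values are normalized counts, a signal in which the authors divided reads by a DESeq2 size factor. Dividing by the value of 1 read gave whole reads within 0.01 reads for 100% of values in each library. Of 23337 names, 5080 (21.8%) form groups made of a name and those that add a digit to it, where rows can be displaced between libraries. The groups were set by spelling alone and displacement was not checked row by row, so some of their rows may be in place. No member lies in these groups, and listed genes that do were left out of list counts.

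Samples were grouped by the passage and clone in their titles. The test was limma 3.58.1 (R 4.3.3) on log2(normalized count + 1) with a mean-variance trend, over 14791 names with a mean of at least 10, with Benjamini-Hochberg adjustment and no clone term. A limma F test compared clones with passage as covariate. The code was tested on simulated data. The reads behind a value limit its precision, and intervals cover counting error only. Alternatives were a pseudocount of 0.5 or 10, TMM scaling, no filter or a minimum mean of 100, a robust prior, only names outside the displaced groups, edgeR 4.0.16 and DESeq2 1.42.0 on the recovered reads, the clone as a block, no passage term in the F test, and leaving out each library or clone. The clone number in the titles was taken to pair libraries of the same line. Deviations from the passage means over 12283 names had r of 0.0956 between the libraries of clone 6 (0.281 with another clone), 0.271 in clone 20, 0.701 in clone 30 and 0.433 in clone 36.

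The members and lists were chosen with earlier results of these data known. Named were all members, the lowest and highest change of each list, any list gene called, and the 5 names most like the factors and the basement membrane genes. Genes named beyond this rule were chosen after their values were seen. Exon lengths are from GENCODE M21.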

Additional observations from a re-analysis of the deposited data

Results flagged for a closer look

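The mean log2 change of the 10 primitive endoderm genes from passage 6 to passage 16 was 0.81 in clone 20 and negative in the other clones (-0.88 in clone 6, -0.39 in clone 30 and -0.64 in clone 36). It stood out because all 10 genes moved one way in clone 20 and the opposite way in clones 6, 30 and 36. With 1 library per clone and passage, the difference between clones was not tested. Of 20 groups of 4 libraries (10 genes at each passage), none held a library that Dixon's criterion at 95% sets apart.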

How the results depend on the processing

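No member was called between passages or between clones under any alternative, and the lowest adjusted p for passage over the alternatives was 0.646 (*Sparc*, DESeq2 with the clone as a block). Of 240 values of a member's log2 change under an alternative, 222 kept their sign. The other 18 came from leaving out a library or a clone, and their cause was not tested. Over those settings the change ran from -0.74 to 0.20 for *Gata4*, from -0.58 to 0.26 for *Gata6*, from -0.92 to 0.10 for *Sox7*, from -0.32 to 0.25 for *Dab2* and from -0.51 to 0.30 for *Pdgfra*. The basement membrane genes kept their sign in all of them, but their changes came near 0 without passage 6 clone 36 or without passage 16 clone 30. They ran from -0.67 to -0.019 for *Lama1*, from -0.60 to -0.10 for *Lamb1*, from -0.78 to -0.041 for *Col4a1*, from -0.77 to -0.068 for *Col4a2* and from -0.52 to -0.13 for *Sparc*.

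Over all names, the 1 call between passages became 0 among names outside the displaced groups (limma, 436 with an unadjusted p under 0.05) and 44 with DESeq2. With the replicate block by clone it became 0 in limma (884 with an unadjusted p under 0.05), 2 in edgeR and 98 in DESeq2, and the block changed no member's call. Leaving out libraries or clones gave from 1 to 26 calls, the latter without clone 30. The 20 calls between clones became 62 among names outside the displaced groups and 35 with a robust prior. Leaving out a clone gave from 0 (without clone 20, where 1843 had an unadjusted p under 0.05) to 95 (without clone 6). With 4 clones, SEs of 0.30 to 0.74, or of 0.17 to 0.41 with the clone as a block, limit what passage change could be seen.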

Other observations

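Some listed genes were highest in passage 6 clone 20. *Lrp2*, the endocytic receptor megalin, which works with cubilin in visceral endoderm, had 7471, 15765, 7826 and 9721 normalized counts at passage 6 in clones 6, 20, 30 and 36, and 6391, 8423, 6387 and 8065 at passage 16, with r of 0.363 with the primitive endoderm genes. *Hspg2*, the proteoglycan perlecan, had 16047, 26308, 15500.2 and 18241 at passage 6 and 14939.8, 20396, 15249.6 and 15589.5 at passage 16. Of 14 other basement membrane genes 5 were highest in passage 6 clone 20, as were 5 of 12 genes of FGF and PDGF signalling and 1 of 15 other endoderm genes, against 19.7% of 12283 names. In passage 6 clone 36, where the primitive endoderm genes were highest, the highest value was found for 5 of the same 14 basement membrane genes, 0 of the 12 genes of FGF and PDGF signalling and 11 of the 15 endoderm genes, against 8.61% of 12283 names. These genes and counts were chosen after their values were seen.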
